A study of Mus musculus with 18 samples.

Results

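Genes of the complement system were followed, 9 in number (C1ra, C1s1, C2, C3, C4b, Cfb, Serping1, Masp1 and Cd55), chosen by their symbols among the 38924 genes of the count table. All 9 were among the 16577 genes that passed the filter on low counts and were tested. The study asked whether fibroblasts of different organs keep their own transcriptome after transfer into a foreign organ, and RNA was sequenced in 18 libraries, 3 in each of 6 groups. Fibroblasts from heart, kidney and tail of male ROSA mT/mG mice aged 10 weeks, which carry a membrane tdTomato reporter in their cells, were cultured for 10 days. Of each organ, 400000 to 500000 cells on gelatin foam were then put beneath the capsule of the kidney in syngeneic C57bl6/j hosts aged 10 to 11 weeks, recovered after 3 days and sorted as CD45-;TdTomato+ cells (HFs, KFs and TFs for heart, kidney and tail). The cells left over were plated again as cultured controls (HFc, KFc and TFc), and the study's methods give no length for this second culture. No gene was targeted in any group, and transplanted and cultured cells of an organ differ in surroundings, surgery and sorting together, so that these cannot be told apart. The study calls its replicates biological and kept a separate tube of cells for each transplant, but neither its methods nor the labels say whether replicates came from separate donor animals or cultures, and p-values measure the spread between these libraries.

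Complement is a cascade of serum proteases and surface-binding proteins. The classical pathway starts with C1q, whose bound protease C1r activates C1s, which in turn cleaves C4 and C2 to form an enzyme that cleaves C3. The lectin pathway reaches C4 and C2 through the MASP proteases, and the alternative pathway amplifies C3 cleavage through factor B. C1 inhibitor inactivates C1r, C1s and the MASPs, and CD55 on the cell surface speeds the decay of the enzymes that cleave C3. The liver makes most of the circulating proteins, and fibroblasts are among the other cells known to make several of them.

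Library totals lay between 17927838 and 32245168 counts. Levels are given as CPM, counts of a gene relative to the library size (the CPM unit of edgeR, with TMM scaling), and a gene was treated as detected above 3 counts. The fibroblast marker list (10 genes, among them Col1a1, Dcn, Thy1 and Vim) summed to 98504 to 161531 CPM in HFs and 41259 to 44011 in HFc, 30041 to 103669 in KFs and 22138 to 23430.3 in KFc, and 46020.2 to 50921 in TFs and 35803 to 36134 in TFc. By the threshold given below, 6 of the 10 were higher and 2, Thy1 and Vim, lower in HFs than in HFc. In KFs against KFc 6 were higher and 0 lower, and in TFs against TFc 5 were higher and 1, Vim, lower. Of all genes tested, 18.3%, 14.7% and 11% were higher and 9.33%, 7.99% and 5.53% lower in these comparisons. The library labelled KFs replicate 3 went against its label as male cells: it held Xist, the transcript of the inactive X chromosome, at 1487 CPM and 4 Y-linked genes at 0.719 CPM in sum. The other 17 libraries held Xist at 0.404 CPM or less and the Y-linked genes at 175 to 229.8 CPM. Tests of the complement genes in KFs, and the levels moved most, are therefore given with and without the library labelled KFs replicate 3. Counts of called markers in KFs include it. In bulk RNA, fewer cells of a type and less RNA per cell cannot be told apart.

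The 9 genes lie at 6 places of the genome (GRCm38, GENCODE release 21 coordinates). C1ra (ENSMUSG00000055172, chr6:124512405-124523443, plus strand) and C1s1 (ENSMUSG00000038521, chr6:124530345-124542359, minus strand) are neighbours. C4b (ENSMUSG00000073418, chr17:34728380-34743882), Cfb (ENSMUSG00000090231, chr17:34856374-34862518) and C2 (ENSMUSG00000024371, chr17:34862604-34898265) lie on the minus strand of chromosome 17, in the major histocompatibility region, and C3 (ENSMUSG00000024164, chr17:57203970-57228136, minus strand) lies further along it. Serping1 (ENSMUSG00000023224, chr2:84765387-84775444), Masp1 (ENSMUSG00000022887, chr16:23449417-23520815) and Cd55 (ENSMUSG00000026399, chr1:130439027-130462744) are single genes on the minus strand.

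Reads of 75 bases cannot always be given to one of these genes. Of the 75-base windows of the longest transcript, 42.4% of C1ra were also found in another gene (40.1% in C1rb), 14.7% of C1s1 in C1s2, 23.5% of C4b in C4a and 7.61% of Cd55 in Cd55b. The annotated read-through gene Gm20547 shared 55.6% of the windows of C2 and 81.2% of those of Cfb, whereas C3, Serping1 and Masp1 shared none. Counts of these 6 genes are uncertain to that extent. The counts of the copies ranged from far below their members to close to them. In TFs, Gm20547 had 12 to 316 counts beside 18278 to 24422 of Cfb and 1799 to 2223 of C2. It had up to 92 counts beside 79 to 301 of C2 in HFs, and in TFc up to 64 beside 155 to 230 of C2 and 67 to 204 of Cfb. C4a had 23 to 45 counts beside 105 to 135 of C4b in TFc. Adding the counts of the copies to each member changed 1 call, that of C2 between the responses of KFs and TFs, given below with its value.

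Promoter sequences (250 bases before to 50 after a RefSeq start, GRCm38.p6) were held for 4 of the 9 members, C1ra, C1s1, C3 and Cd55, and not for C2, C4b, Cfb, Serping1 and Masp1. These 4 members are shown because no sequence was held for the others. Capitals mark matches, on either strand, to 4 sets of letters searched for: TTCNNNGAA (GAS, bound by STAT factors), GAAANNGAAA (bound by IRF factors), GGGNNNTTCC (kappaB) and TTNNGCAA (C/EBP), which were present in 8.3%, 3.44%, 5.56% and 10.8% of all 32851 promoters of that length.
C1ra: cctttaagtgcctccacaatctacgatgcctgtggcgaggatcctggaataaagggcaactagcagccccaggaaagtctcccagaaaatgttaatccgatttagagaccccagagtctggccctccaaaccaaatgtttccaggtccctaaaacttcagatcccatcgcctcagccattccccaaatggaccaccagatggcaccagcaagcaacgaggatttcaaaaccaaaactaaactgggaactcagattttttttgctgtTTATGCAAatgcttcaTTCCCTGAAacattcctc
C1s1: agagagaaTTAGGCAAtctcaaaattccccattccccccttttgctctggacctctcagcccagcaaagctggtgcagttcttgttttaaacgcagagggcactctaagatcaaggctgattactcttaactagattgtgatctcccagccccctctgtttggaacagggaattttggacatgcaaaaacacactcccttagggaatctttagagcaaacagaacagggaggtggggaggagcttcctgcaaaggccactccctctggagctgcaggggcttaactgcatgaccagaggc
C3: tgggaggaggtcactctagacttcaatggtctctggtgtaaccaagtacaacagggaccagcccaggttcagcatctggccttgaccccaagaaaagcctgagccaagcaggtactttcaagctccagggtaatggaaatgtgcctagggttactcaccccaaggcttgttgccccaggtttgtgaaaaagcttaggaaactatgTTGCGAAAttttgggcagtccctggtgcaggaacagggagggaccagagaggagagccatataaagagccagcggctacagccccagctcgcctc
Cd55: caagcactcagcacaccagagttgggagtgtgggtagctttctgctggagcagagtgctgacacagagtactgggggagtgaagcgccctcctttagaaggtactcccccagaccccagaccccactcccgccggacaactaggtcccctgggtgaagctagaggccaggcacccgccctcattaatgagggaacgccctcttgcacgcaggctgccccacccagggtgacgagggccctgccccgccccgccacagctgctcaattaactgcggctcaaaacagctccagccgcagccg
The windows are chr6:124512371-124512670 on the plus strand for C1ra, and on the minus strand chr6:124542310-124542609 for C1s1, chr17:57228087-57228386 for C3 and chr1:130462695-130462994 for Cd55. The GENCODE start of C1ra given above, 124512405, lies near the upstream end of its window, so most of that window is inside the annotated gene. C1ra held a C/EBP match 17 bases and a GAS match 33 bases after the RefSeq start, C1s1 a C/EBP match at -242 and C3 a C/EBP match at -45 on the opposite strand. Cd55 held none of the 4, and neither did the window of a second start of C1s1 (chr6:124542272-124542571), which is not printed. No IRF or kappaB match was present in any of these windows. These matches are descriptions of the letters alone.

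Per kilobase of merged exons, C3 had the highest mean of the members in all 3 transplanted groups, and the order below it differed by organ. C3 stood at 1149 ± 656 CPM per kilobase (SD, n = 3) in HFs, 815 ± 134 in TFs and 184 ± 112 in KFs. In HFs, Serping1 came next at 311 ± 68.2 CPM per kilobase, and in TFs Cfb at 344 ± 103. In KFs, Serping1 at 137 ± 106 lay within the spread of C3, and without the library labelled KFs replicate 3 Serping1 was at 191 ± 73.6 and C3 at 148 ± 131 (SD, n = 2). In culture the leading member was Serping1 in HFc and KFc, at 34.7 ± 6.04 and 25.2 ± 0.778 CPM per kilobase, and C1ra in TFc, at 32.4 ± 0.302, with C3 in HFc, at 29.4 ± 6.69, within the spread of Serping1. C2 and Cfb in HFc, at 0.0898 ± 0.0268 and 0.168 ± 0.0317, and Masp1 in KFc, at 0.174 ± 0.0377, were the lowest values of the cultured groups. The 9 members together made up 3836 to 11591 CPM in the HFs libraries, 831 to 2445 in KFs and 6345 to 7428 in TFs, against 239 to 390.2 CPM in the 9 cultured libraries. C3 alone was 6.03% to 7.82% of this sum in TFc and 53.5% to 63.0% of it in TFs.

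**Figure D1:**
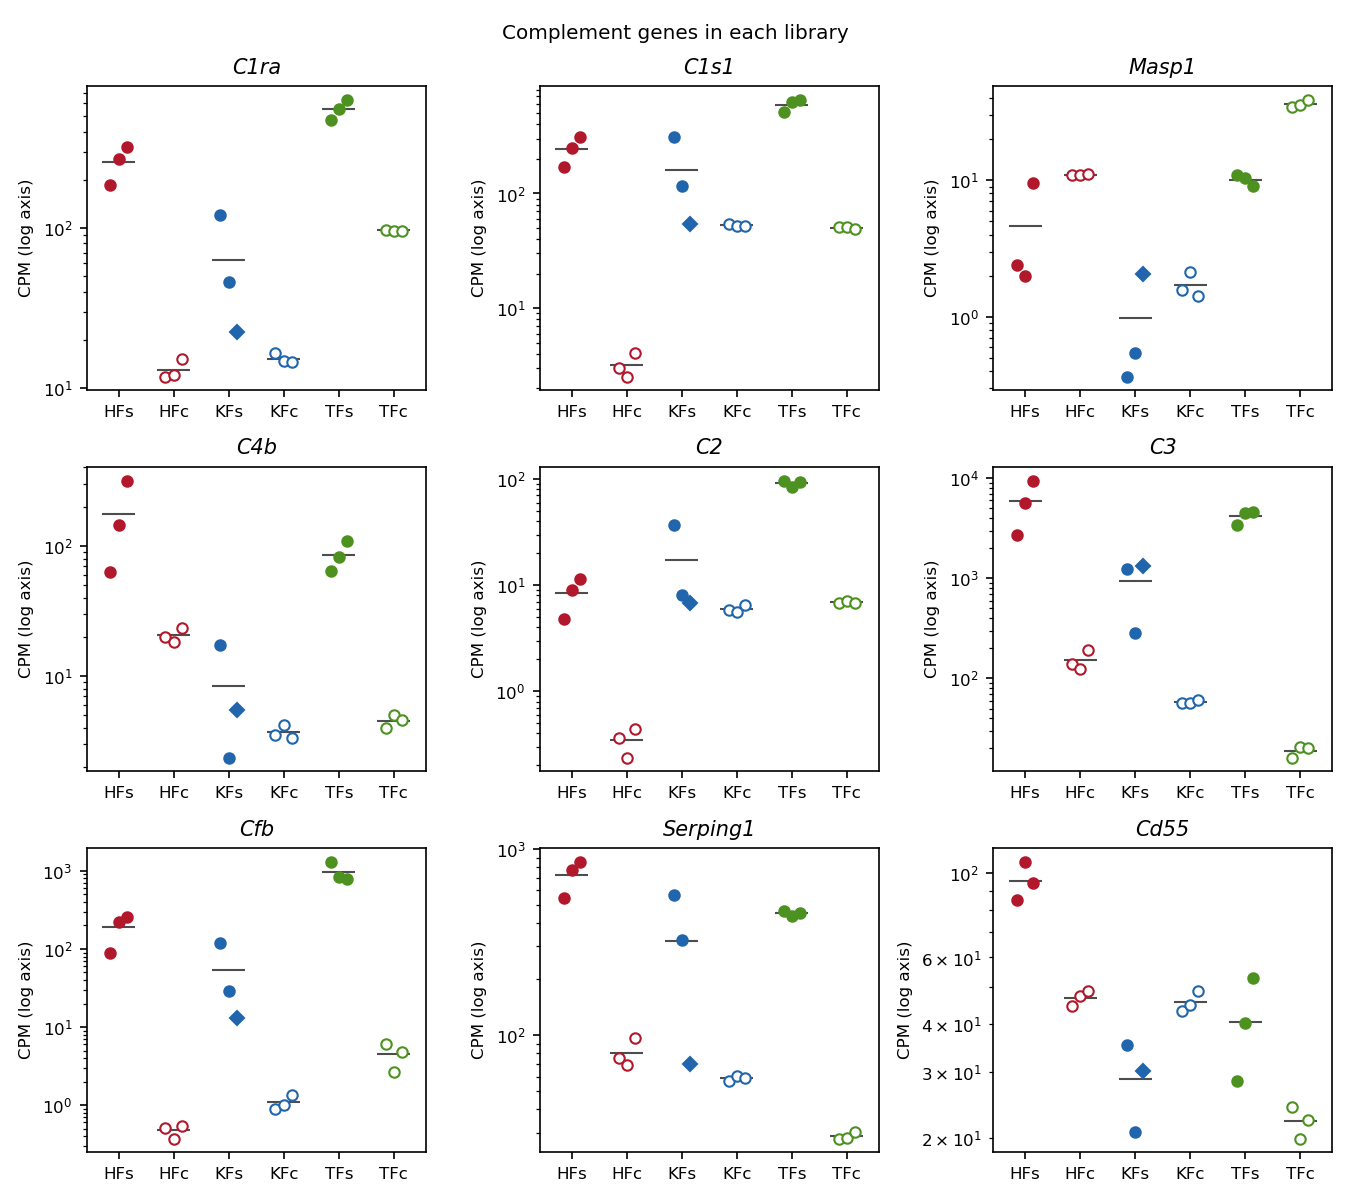
CPM (log axis) of each complement gene in the 18 libraries; filled points are transplanted cells, open points cultured cells, horizontal lines group means, and the diamond is the library labelled KFs replicate 3. All genes but Masp1 have their highest library in a transplanted group, and the 3 KFs libraries lie 4.61-fold or more apart for all genes but Cd55.

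Transplanted cells were compared with cultured cells of the same organ to see which members changed. C1ra, C1s1, C2, C3, Cfb and Serping1 rose in transplanted cells of all 3 organs, C4b rose in heart and tail cells, and Masp1 fell in heart and tail cells. In kidney cells C1s1 and C2 lost the call without KFs replicate 1, and also when only KFs and KFc were fitted, with adjusted p of 0.077 and 0.12. Cfb rose most in HFs and KFs, 402-fold and 48.6-fold. In TFs, C3 and Cfb rose about alike, 221-fold and 216-fold. Changes were called by edgeR's quasi-likelihood test at an adjusted p below 0.05 with a log2 fold change above 1 or below -1. In HFs against HFc, 8 of 9 members were higher and 1 was lower, where 18.3% of all tested genes were higher and 9.33% lower. In KFs against KFc, 6 members were higher and 0 lower, beside 14.7% and 7.99% of all genes. Beside that 0 lower, 1 member, Cd55, was lower at an adjusted p of 0.0095 by edgeR but within the fold-change limit. DESeq2 also called 0 lower. In TFs against TFc, 7 were higher and 1 lower, beside 11% and 5.53%. The 6 members higher in each of the 3 comparisons stand beside 5.3% of all tested genes that were. The median log2 fold change of the members was 4.32 in HFs, 1.61 in KFs (1.98 without the library labelled KFs replicate 3 and 0.69 without KFs replicate 1) and 3.73 in TFs, and that of all genes tested 0.05, 0.09 and 0.00.

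**Figure D2:**
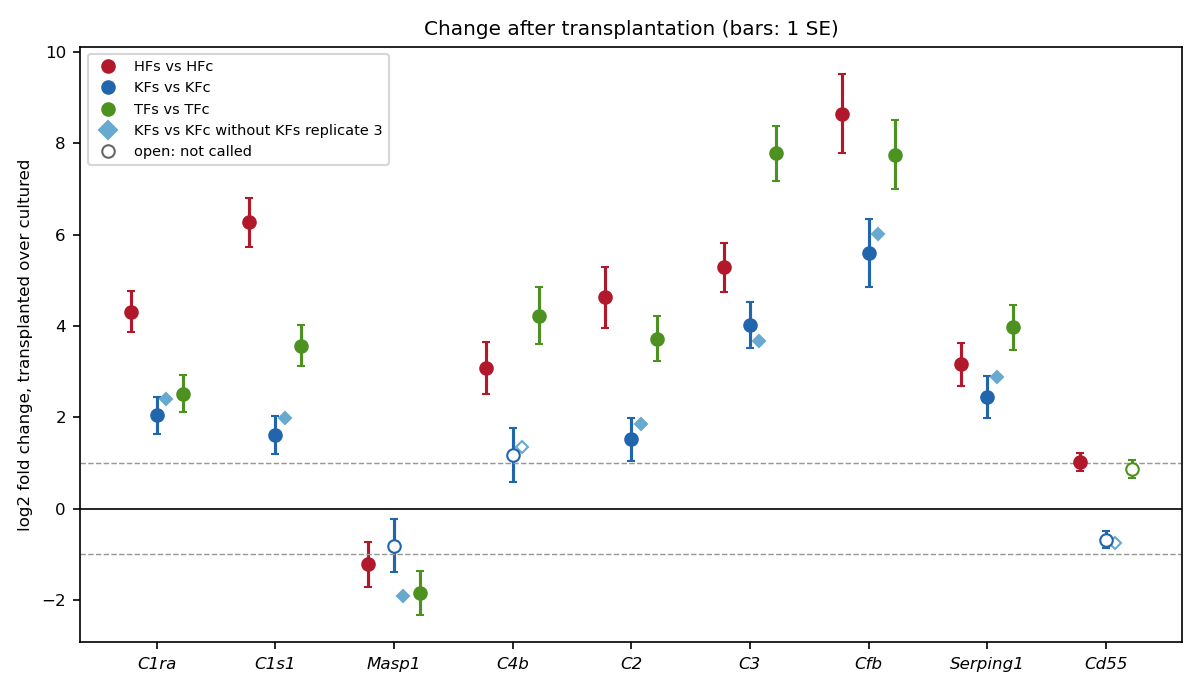
log2 fold change of transplanted over cultured cells for each complement gene and organ, with bars of 1 SE; filled symbols passed the threshold, dashed lines mark the limits of 1 and -1, and diamonds give KFs against KFc without the library labelled KFs replicate 3. Cfb lies highest in heart and kidney cells, C3 and Cfb lie at like values in tail cells, and Masp1 is the one gene below 0 in all 3 organs.

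Among the initiating proteases, C1ra and C1s1 rose and Masp1 did not. C1ra, the protease that C1q activates, stood at 187, 271 and 318 CPM in the 3 HFs libraries and 11.8, 12.01 and 15.2 in HFc. In tail cells it stood at 472, 556 and 631 CPM in TFs and 97.5, 96.1 and 95.9 in TFc, and in kidney cells at 121, 46.1 and 22.4 in KFs and 16.6, 14.8 and 14.5 in KFc. All transplanted libraries lay above all cultured ones of their organ, the library labelled KFs replicate 3 being the nearest to its controls. The log2 fold change of C1ra was 4.32 ± 0.44 (SE), adjusted p = 1.1e-06, in heart cells, 2.04 ± 0.41 (SE), adjusted p = 0.00068, in kidney cells and 2.52 ± 0.40 (SE), adjusted p = 0.00018, in tail cells.

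C1s1, the protease that C1r activates and that cleaves C4 and C2, was at 170.0, 251 and 312 CPM in HFs and at 2.99, 2.54 and 4.08 in HFc, where it was low. In tail cells it was at 509, 625 and 654 CPM in TFs and 51.1, 50.9 and 48.6 in TFc. In kidney cells it was at 314, 115 and 54.4 CPM in KFs and 54.1, 52.1 and 52.1 in KFc, so that the lowest KFs library lay just above its controls. The log2 fold change of C1s1 was 6.27 ± 0.53 (SE), adjusted p = 1.6e-07, in heart cells and 3.57 ± 0.45 (SE), adjusted p = 2.1e-05, in tail cells. In kidney cells it was 1.61 ± 0.42 (SE), adjusted p = 0.0048, and without KFs replicate 1, the highest library, it was 0.69 ± 0.26 (SE), adjusted p = 0.045, which is under the fold-change limit.

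Masp1, whose transcripts encode the lectin-pathway proteases MASP-1 and MASP-3, was highest in cultured tail cells. It was at 34.5, 35.7 and 38.9 CPM in TFc and 11.0, 10.3 and 9.03 in TFs, at 10.9, 10.9 and 11.2 in HFc and 2.40, 1.98 and 9.56 in HFs, and at 1.57, 2.13 and 1.43 in KFc and 0.364, 0.545 and 2.04 in KFs. The tail groups did not overlap, and HFs replicate 3 and the library labelled KFs replicate 3 were the high libraries of their groups. Masp1 fell in TFs, with a log2 fold change of -1.85 ± 0.49 (SE), adjusted p = 0.0073. In HFs it was -1.21 ± 0.49 (SE), adjusted p = 0.047, and the adjusted p ran from 0.00045 to 0.20 over 27 alternatives. That call was lost in 18 of them, among them leaving out HFs replicate 1 or 2 or any 1 of the HFc, KFc, TFs or TFc libraries, and without HFs replicate 3 the log2 fold change was -2.28 ± 0.42 (SE), adjusted p = 0.00045.

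C4b and C2 are the substrates of C1s. C4b, the mouse complement C4 gene, was at 63.5, 145 and 316 CPM in HFs and 20.0, 18.4 and 23.5 in HFc, and at 64.4, 81.8 and 108 in TFs and 4.01, 5.02 and 4.603 in TFc. In kidney cells it was at 17.4, 2.37 and 5.51 CPM in KFs and 3.54, 4.22 and 3.32 in KFc, and these groups overlapped. C4b rose in heart cells, with a log2 fold change of 3.09 ± 0.57 (SE), adjusted p = 0.00030, and in tail cells, with 4.23 ± 0.62 (SE), adjusted p = 8.5e-05. Without HFs replicate 3, the highest of its group, the value in heart cells was 2.39 ± 0.53 (SE), adjusted p = 0.0017. In kidney cells the log2 fold change was 1.18 ± 0.60 (SE), adjusted p = 0.12. Without KFs replicate 2, the lowest library, it was 1.59 ± 0.55 (SE), adjusted p = 0.027, and passed the threshold, and without KFs replicate 1, the highest, it was 0.07 ± 0.54 (SE), adjusted p = 0.93.

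C2, which gives the catalytic part of the C3-cleaving enzyme, was at 96.2, 83.3 and 94.2 CPM in TFs and 6.82, 7.06 and 6.79 in TFc. In heart cells it was at 4.75, 9.03 and 11.4 CPM in HFs and 0.364, 0.237 and 0.442 in HFc, with 7 to 10 counts per HFc library. In kidney cells KFs replicate 1 stood apart, with 36.9, 8.07 and 6.79 CPM in the 3 KFs libraries and 5.82, 5.62 and 6.54 in KFc. For C2 the log2 fold change was 4.63 ± 0.66 (SE), adjusted p = 2.8e-05, in heart cells and 3.73 ± 0.50 (SE), adjusted p = 3.9e-05, in tail cells. In kidney cells it was 1.52 ± 0.47 (SE), adjusted p = 0.015, and without KFs replicate 1 it was 0.31 ± 0.24 (SE), adjusted p = 0.30, so that the call rests on that library.

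C3 and Cfb, the parts of the alternative pathway's amplifying enzyme, rose in all 3 organs. C3, the protein on which all 3 pathways converge, was at 2688, 5615 and 9420.2 CPM in HFs and 139, 124 and 190.1 in HFc, at 1238, 286 and 1317 in KFs and 56.9, 56.8 and 61.0 in KFc, and at 3396, 4533 and 4646 in TFs and 16.2, 20.8 and 20.0 in TFc. Every transplanted library was above every cultured library, also across organs. For C3 the log2 fold change was 5.29 ± 0.53 (SE), adjusted p = 9.5e-07, in heart cells, 4.02 ± 0.50 (SE), adjusted p = 1.1e-05, in kidney cells and 7.79 ± 0.60 (SE), adjusted p = 1.9e-07, in tail cells.

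Cfb, complement factor B, was at 89.4, 222 and 256 CPM in HFs and 0.510, 0.372 and 0.540 in HFc, with 11 to 14 counts per HFc library. It was at 118, 29.0 and 13.1 CPM in KFs and 0.895, 1.01 and 1.36 in KFc, and at 1306, 830.2 and 780.2 in TFs and 6.05, 2.63 and 4.73 in TFc. No transplanted library of Cfb overlapped a cultured one, and KFs spread over the widest range, 9.01-fold from lowest to highest. For Cfb the log2 fold change was 8.65 ± 0.87 (SE), adjusted p = 8.9e-07, in heart cells, 5.60 ± 0.75 (SE), adjusted p = 2.0e-05, in kidney cells and 7.75 ± 0.76 (SE), adjusted p = 2.0e-06, in tail cells.

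The regulators differed from each other. Serping1, which encodes C1 inhibitor, was at 546, 770.0 and 853 CPM in HFs and 75.9, 69.5 and 96.4 in HFc, and at 462, 438 and 453 in TFs and 27.9, 28.2 and 30.1 in TFc. In kidney cells it was at 565, 323 and 70.0 CPM in KFs and 56.6, 60.05 and 59.1 in KFc, where the library labelled KFs replicate 3 lay close to the cultured cells. Its log2 fold change was 3.17 ± 0.47 (SE), adjusted p = 3.9e-05, in heart cells, 2.45 ± 0.46 (SE), adjusted p = 0.00042, in kidney cells and 3.97 ± 0.49 (SE), adjusted p = 1.7e-05, in tail cells.

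Cd55, the membrane-bound decay accelerating factor, moved least. It was at 85.3, 107 and 94.2 CPM in HFs and 44.7, 47.6 and 48.9 in HFc, at 35.2, 20.8 and 30.2 in KFs and 43.5, 45.0 and 49.0 in KFc, and at 28.4, 40.3 and 53.0 in TFs and 24.1, 20.0 and 22.4 in TFc. The groups of each organ did not overlap, and kidney cells were lower after transplantation where heart and tail cells were higher. Cd55 rose in HFs just past the limit, with a log2 fold change of 1.02 ± 0.19 (SE), adjusted p = 0.00036, and the value fell to 0.98 without HFs replicate 2 or without HFc replicate 1. With scaling by library size alone it was 0.97 ± 0.20 (SE), adjusted p = 0.00086, and the call was also lost. The log2 fold change was -0.67 ± 0.19 (SE), adjusted p = 0.0095, in kidney cells and 0.87 ± 0.20 (SE), adjusted p = 0.0026, in tail cells, both within the fold-change limit. Without TFs replicate 1 the value in tail cells was 1.07 ± 0.18 (SE), adjusted p = 0.00038.

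Without the library labelled KFs replicate 3, 6 members were higher in KFs than in KFc and 1 was lower, beside 12.9% and 10.3% of all genes tested. The log2 fold change became 2.40 ± 0.29 (SE), adjusted p = 4.8e-06, for C1ra and 1.98 ± 0.30 (SE), adjusted p = 4.1e-05, for C1s1. It became 6.02 ± 0.61 (SE), adjusted p = 8.0e-07, for Cfb and 2.88 ± 0.20 (SE), adjusted p = 1.5e-08, for Serping1. These 4 genes were lowest in that library, and their fold changes were larger without it. C3 and Masp1 were highest in that library, and without it C3 became 3.67 ± 0.49 (SE), adjusted p = 1.3e-05, and Masp1 passed the threshold as lower, at -1.92 ± 0.64 (SE), adjusted p = 0.019. C2 became 1.85 ± 0.41 (SE), adjusted p = 0.0014, C4b 1.35 ± 0.66 (SE), adjusted p = 0.10, and Cd55 -0.76 ± 0.22 (SE), adjusted p = 0.0094. Without KFs replicate 1 instead, the highest library of C1ra, Cfb and Serping1, the value was 1.17 ± 0.25 (SE), adjusted p = 0.0015, for C1ra, 4.27 ± 0.50 (SE), adjusted p = 8.8e-06, for Cfb and 1.75 ± 0.38 (SE), adjusted p = 0.0019, for Serping1.

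Markers of other cells moved beside these changes. Proximal tubule markers (10 genes, among them Slc34a1, Lrp2 and Kap) were all above 3 counts in every transplanted library and summed to 77.5 to 1109.9 CPM in HFs, 57.2 to 117 in KFs and 123 to 316 in TFs. In culture they summed to 22.5 to 25.0 CPM in HFc, 103 to 111 in KFc and 19.5 to 21.8 in TFc with 3 to 5 of 10 above 3 counts, and Kap was at 0 in all of them. The sum was highest in HFs replicate 2, and HFs replicates 1 and 3 held 138 and 77.5 CPM. With HFs replicate 2 left out, C3 had a log2 fold change in heart cells of 5.38 ± 0.57 (SE), adjusted p = 4.3e-06. Cfb was then at 8.57 ± 0.91 (SE), adjusted p = 4.6e-06. Without that library Masp1 lost the call, at -0.79 ± 0.49 (SE), adjusted p = 0.20. Cd55 also lost it, at 0.98 ± 0.22 (SE), adjusted p = 0.0017, within the fold-change limit. Markers of other tubule and epithelium (8 genes, among them Umod and Epcam) summed to 13.3 to 89.4 CPM in HFs, 16.7 to 132 in KFs and 19.9 to 68.3 in TFs, with 6 to 8 of 8 above 3 counts. The library labelled KFs replicate 3 held the 132 CPM, where the other KFs libraries held 29.3 and 16.7, and its fibroblast markers summed to 30041 CPM, against 103669 and 80303 CPM in KFs replicates 1 and 2. In HFc and TFc the sum of the tubule and epithelium markers was 0.393 CPM or less and in KFc 14.3 to 20.3 CPM.

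Leukocyte markers (10 genes, among them Ptprc and Adgre1) summed to 82.0 to 144 CPM in HFs and 80.0 to 92.6 in HFc, 36.5 to 129.6 in KFs and 388 to 409.7 in KFc, and 37.3 to 43.6 in TFs and 167 to 198 in TFc. They were lower after transplantation in kidney and tail cells, with 6 to 9 of 10 above 3 counts. Neutrophil markers (5 genes) summed to 15.3 to 20.5 CPM in transplanted and 5.90 to 11.7 CPM in cultured libraries, with 2 to 4 of 5 above 3 counts and Ly6g at 0 in all 18. Endothelial markers (6 genes, among them Pecam1 and Cdh5) summed to 58.6 to 66.9 CPM in HFs and 39.7 to 42.6 in HFc, where 5 of 6 were called higher and the sums did not overlap. They summed to 24.9 to 45.7 CPM in KFs and 35.0 to 37.0 in KFc, and 42.2 to 45.8 in TFs and 37.6 to 43.0 in TFc, with 6 of 6 above 3 counts in every transplanted library and 2 to 6 in the cultured ones. Of the 6 endothelial markers, 3 were called higher and 1 lower in KFs, and 2 higher and 0 lower in TFs. In HFs, KFs and TFs, 10, 8 and 10 of 10 proximal tubule markers were called higher and 0 lower. Of the 8 other tubule and epithelium markers 6, 3 and 7 were higher and 0 lower. Of 8 leukocyte markers tested 1, 0 and 0 were higher and 0, 6 and 4 lower. Of all genes 18.3%, 14.7% and 11% were higher and 9.33%, 7.99% and 5.53% lower. The part of the markers in the results was not tested.

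In culture, the organs were compared to see where the members stood in cells that were not transferred. HFc held more C3, C4b, Serping1 and Cd55 than TFc and less C1ra, C1s1, C2, Cfb and Masp1. All 9 members passed an adjusted p of 0.05, the threshold used between organs, with 4 higher in HFc and 5 lower, beside 20.9% and 21% of all genes. The log2 difference was 2.99 ± 0.49 (SE), adjusted p = 0.00014, for C3 and 2.18 ± 0.59 (SE), adjusted p = 0.0072, for C4b. It was -4.33 ± 0.67 (SE), adjusted p = 8.2e-05, for C2 and -3.99 ± 0.49 (SE), adjusted p = 8.7e-06, for C1s1. These 4 genes had the largest differences in either direction, and all 9 calls were made under all alternatives run. C1ra differed by -2.90 ± 0.42, Cfb by -3.26 ± 0.87, Masp1 by -1.73 ± 0.48, Serping1 by 1.49 ± 0.45 and Cd55 by 1.08 ± 0.20, with adjusted p from 4.6e-05 to 0.014.

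Between KFc and TFc 5 members were called. C3 and Cd55 were higher in KFc and C1ra, Cfb and Masp1 lower, 2 and 3 members beside 17.8% and 18.5% of all genes. Masp1 differed most, with a log2 difference of -4.41 ± 0.56 (SE), adjusted p = 1.9e-05, followed by C1ra with -2.66 ± 0.41 (SE), adjusted p = 0.00014. C1s1, which was at like levels in both, had a log2 difference of 0.07 ± 0.41 (SE), adjusted p = 0.92. C3 differed by 1.62 ± 0.47 (SE), adjusted p = 0.013, and by 1.51 ± 0.55 (SE), adjusted p = 0.053, without TFc replicate 1. Cfb differed by -2.04 ± 0.75 (SE), adjusted p = 0.043, with adjusted p from 2.4e-05 to 0.13 over 26 alternatives, and that call was lost without any 1 of 12 libraries, namely those of HFc and KFc, HFs replicates 2 and 3, TFs replicates 2 and 3, and TFc replicates 1 and 3. Cd55 differed by 1.05 ± 0.20 (SE), adjusted p = 0.00068. The values of C2, C4b and Serping1 were -0.20 ± 0.48, -0.29 ± 0.61 and 1.03 ± 0.44 with adjusted p of 0.78, 0.75 and 0.082, and Serping1 passed without KFs replicate 1 or without the library labelled KFs replicate 3, with adjusted p of 0.035 and 0.00025. Serping1 also passed by DESeq2 and when only KFc and TFc were fitted, with adjusted p of 0.031 and 2.0e-11.

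Between HFc and KFc, C3, C4b and Masp1 were higher in heart cells and C1s1 and C2 lower, 3 and 2 members beside 15.1% and 14% of all genes. The log2 difference was -4.06 ± 0.49 (SE), adjusted p = 1.4e-05, for C1s1 and -4.13 ± 0.67 (SE), adjusted p = 0.00024, for C2. The neighbour of C1s1, C1ra, had a difference of -0.24 ± 0.40 (SE), adjusted p = 0.71. Masp1 differed by 2.68 ± 0.53 (SE), adjusted p = 0.0013, and C4b by 2.48 ± 0.60 (SE), adjusted p = 0.0053. C3 differed by 1.38 ± 0.46 (SE), adjusted p = 0.033, with adjusted p from 1.9e-09 to 0.11 over 26 alternatives, and lost the call without HFc replicate 1 or 3, any 1 of the KFc libraries, or TFc replicate 2 or 3. Cfb, Serping1 and Cd55 had log2 differences of -1.22 ± 1.01, 0.46 ± 0.44 and 0.04 ± 0.19, with adjusted p of 0.41, 0.48 and 0.92. When only HFc and KFc were fitted, C1ra, Cfb and Serping1 also passed, with adjusted p of 0.042, 0.032 and 0.00059. The 3 comparisons of cultured cells share groups and are not independent.

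**Figure D3:**
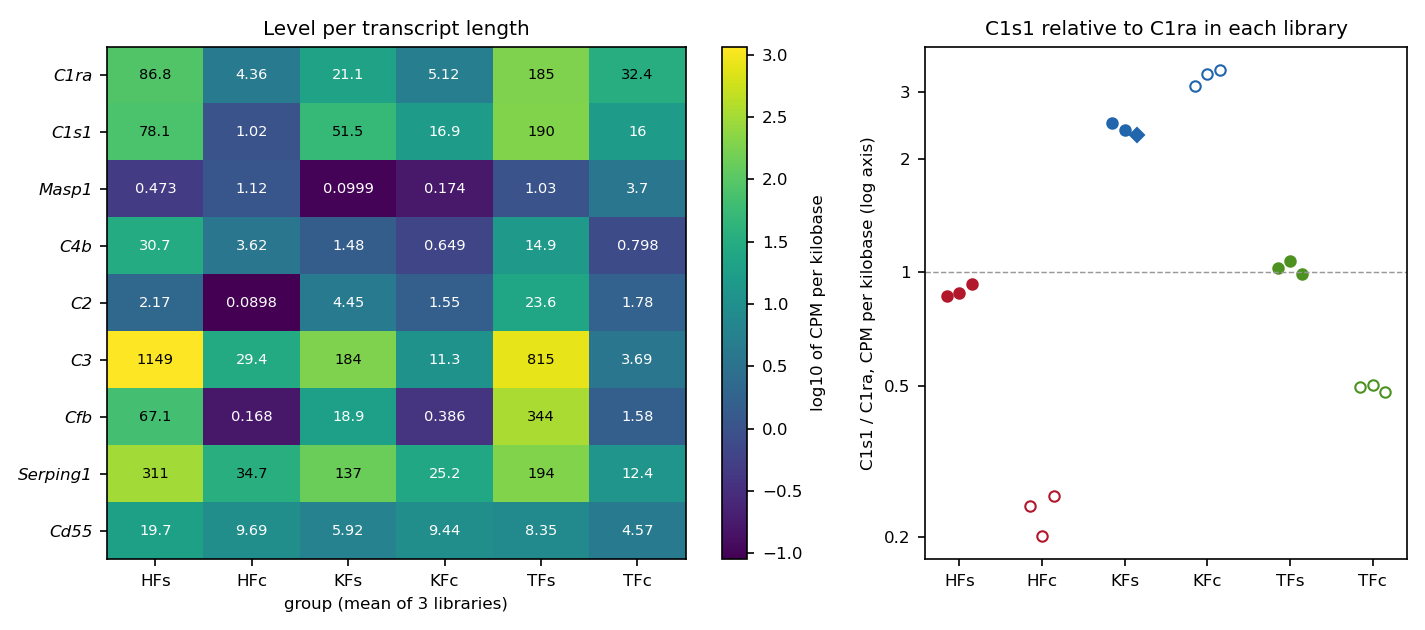
Left, mean CPM per kilobase of merged exons of each complement gene in each group (3 libraries), coloured by its log10; right, C1s1 divided by C1ra in CPM per kilobase in each library on a log axis, filled for transplanted and open for cultured cells, with a diamond for the library labelled KFs replicate 3. C3 has the highest mean of each transplanted group, and the ratio separates the 6 groups. In KFs without the library labelled KFs replicate 3, Serping1 was at 191 and C3 at 148 CPM per kilobase.

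After transplantation, the organs were compared again, with the same thresholds. HFs held more Cd55 than TFs and less C1s1, C2 and Cfb, 1 and 3 members beside 10.3% and 12.7% of all genes. The log2 difference was -3.43 ± 0.50 (SE), adjusted p = 0.00012, for C2, -2.36 ± 0.58 (SE), adjusted p = 0.0081, for Cfb and 1.24 ± 0.20 (SE), adjusted p = 0.00027, for Cd55. C1s1 differed by -1.29 ± 0.41 (SE), adjusted p = 0.033, and lost the call without HFs replicate 1 or 2 or TFs replicate 2 or 3, with adjusted p from 0.0011 to 0.15 over 26 alternatives. C3, which differed between HFc and TFc, had a difference of 0.50 ± 0.45 (SE), adjusted p = 0.48. C1ra, C4b, Serping1 and Masp1 had log2 differences of -1.10 ± 0.39, 1.04 ± 0.53, 0.68 ± 0.43 and -1.09 ± 0.50, with adjusted p of 0.052, 0.18, 0.29 and 0.13. The C1ra call was gained without KFs replicate 1 or without the library labelled KFs replicate 3, with adjusted p of 0.0019 and 0.0036. C1ra also passed by DESeq2, with library size alone and when only HFs and TFs were fitted, with adjusted p of 0.026, 0.010 and 0.0099. The Masp1 call was gained without HFs replicate 3, at -2.18 ± 0.42 (SE), adjusted p = 0.0021. It was also gained without the library labelled KFs replicate 3, at -1.06 ± 0.38 (SE), adjusted p = 0.044, and that of Serping1 without the latter, with 0.0068. Serping1 also passed when only HFs and TFs were fitted, with an adjusted p of 0.018. C4b was called in none of the 26 alternatives, where it ran from 0.33 to 1.48.

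KFs were lower than TFs in 7 members and higher in 0, beside 13.8% lower and 15.3% higher of all genes. By edgeR, 0 members were higher at an unadjusted p under 0.05, and DESeq2 called 0 higher. When only KFs and TFs were fitted, C1s1, C2 and C3 lost the call, with adjusted p of 0.11, 0.081 and 0.075. The log2 difference was -4.18 ± 0.63 (SE), adjusted p = 0.00018, for Cfb, -3.37 ± 0.57 (SE), adjusted p = 0.00041, for Masp1 and -3.34 ± 0.59 (SE), adjusted p = 0.00061, for C4b. C1ra differed by -3.13 ± 0.42 (SE), adjusted p = 5.6e-05, whereas C1s1 differed by -1.89 ± 0.42 (SE), adjusted p = 0.0033. C2 and C3 differed by -2.41 ± 0.47 and -2.14 ± 0.46, with adjusted p of 0.0013 and 0.0028. Serping1 and Cd55 had differences of -0.50 ± 0.43 and -0.50 ± 0.19, with adjusted p of 0.42 and 0.067. Without the library labelled KFs replicate 3, 7 members were lower and 0 higher, beside 16.8% and 18.3% of all genes, with Masp1 at -4.43 ± 0.58 (SE), adjusted p = 3.1e-05. Without KFs replicate 1, Serping1 and Cd55 also passed as lower, at -1.19 ± 0.40 (SE), adjusted p = 0.034, and -0.67 ± 0.21 (SE), adjusted p = 0.022. The difference then became larger for Cfb, at -5.52 ± 0.52 (SE), adjusted p = 2.4e-06, for C4b, at -4.44 ± 0.57 (SE), adjusted p = 4.2e-05, and for C1ra, at -4.01 ± 0.29 (SE), adjusted p = 2.3e-07. It was also larger for C2, at -3.61 ± 0.27 (SE), adjusted p = 2.4e-07, and for C1s1, at -2.81 ± 0.30 (SE), adjusted p = 7.1e-06. Cd55 also passed without TFs replicate 1, at -0.70 ± 0.18 (SE), adjusted p = 0.0087.

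HFs were higher than KFs in 7 members and lower in 0, beside 14.2% higher and 19% lower of all genes. C2 was lower at an unadjusted p under 0.05 by edgeR, and DESeq2 called 0 lower. When only HFs and KFs were fitted, 2 were higher, C4b and Cd55, and C1ra, C3, Cfb, Serping1 and Masp1 lost the call, with adjusted p of 0.089, 0.075, 0.20, 0.29 and 0.16. The log2 difference was 4.39 ± 0.61 (SE), adjusted p = 8.9e-05, for C4b, 2.64 ± 0.47 (SE), adjusted p = 0.00064, for C3 and 2.04 ± 0.40 (SE), adjusted p = 0.0012, for C1ra. Masp1 differed by 2.28 ± 0.56 (SE), adjusted p = 0.0060, and Cd55 by 1.73 ± 0.20 (SE), adjusted p = 1.5e-05. Cfb differed by 1.83 ± 0.58 (SE), adjusted p = 0.024, and lost the call without HFs replicate 2 or 3 or KFs replicate 2, with adjusted p from 0.00011 to 0.20 over 26 alternatives. Serping1 differed by 1.18 ± 0.44 (SE), adjusted p = 0.049, with adjusted p from 0.0027 to 0.29, and kept the call in 6 of 26 alternatives, among the libraries left out only without KFs replicate 1 or the library labelled KFs replicate 3. C1s1 and C2 had differences of 0.60 ± 0.41 and -1.02 ± 0.47, with adjusted p of 0.28 and 0.11. Without the library labelled KFs replicate 3, 7 members were higher and 1, C2, lower, at -1.37 ± 0.41 (SE), adjusted p = 0.015, beside 18.1% and 20.7% of all genes. Masp1 was then at 3.37 ± 0.60 (SE), adjusted p = 0.00040. C2 was also lower without KFs replicate 2, at -1.35 ± 0.45 (SE), adjusted p = 0.041. Without KFs replicate 1 it had the other sign, at 0.19 ± 0.24 (SE), adjusted p = 0.59, so that its direction rests on that library. C1s1 passed as higher without KFs replicate 1, at 1.52 ± 0.28 (SE), adjusted p = 0.00071. Without HFs replicate 3, Cfb, Serping1 and Masp1 lost the call, with Masp1 at 1.19 ± 0.44 (SE), adjusted p = 0.060. Without KFs replicate 1 the difference was 5.49 ± 0.60 (SE), adjusted p = 8.6e-06, for C4b, 2.91 ± 0.28 (SE), adjusted p = 2.4e-06, for C1ra, 3.16 ± 0.46 (SE), adjusted p = 0.00011, for Cfb and 1.87 ± 0.41 (SE), adjusted p = 0.0027, for Serping1. C4b was at 3.65 ± 0.55 (SE), adjusted p = 0.00034, without HFs replicate 3.

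The responses themselves, transplanted over cultured, were compared between organs by interaction contrasts, which share groups and are not independent. C1ra and C1s1 rose more in heart than in tail cells and C3 rose less. The difference of log2 fold changes was 2.70 ± 0.62 (SE), adjusted p = 0.0058, for C1s1, -2.50 ± 0.64 (SE), adjusted p = 0.012, for C3 and 1.80 ± 0.55 (SE), adjusted p = 0.029, for C1ra. With 2 members higher and 1 lower, these stand beside 10.1% and 12.7% of all genes. The C1ra call was lost without any 1 of 9 libraries, namely HFs replicates 2 and 3, HFc replicates 1 and 2 and those of TFs except replicate 3 and of TFc, with adjusted p from 0.00012 to 0.070 over 26 alternatives. Serping1, at -0.81 ± 0.62 (SE), adjusted p = 0.38, passed without the library labelled KFs replicate 3, with an adjusted p of 0.031. It also passed when only the groups compared were fitted, with an adjusted p of 0.013. The differences of C2, C4b, Cfb, Masp1 and Cd55 were 0.90 ± 0.85, -1.14 ± 0.78, 0.90 ± 1.08, 0.63 ± 0.68 and 0.15 ± 0.27, with adjusted p of 0.32 or more. Over the 26 alternatives C4b ran from -1.83 to -0.68 and Masp1 from -0.43 to 1.06, and neither was called in any.

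Kidney cells responded less than tail cells in C1s1, C2, C3, C4b and Cd55, 5 members lower and 0 higher beside 6.07% and 4.99% of all genes. By edgeR, 0 members were higher at an unadjusted p under 0.05, and DESeq2 called 0 higher. The difference was -3.76 ± 0.66 (SE), adjusted p = 0.0020, for C3, and -1.55 ± 0.28 (SE), adjusted p = 0.0024, for Cd55, which was lower in KFs and higher in TFs than in culture. C4b differed by -3.05 ± 0.83 (SE), adjusted p = 0.028, C2 by -2.21 ± 0.66 (SE), adjusted p = 0.043, and C1s1 by -1.96 ± 0.58 (SE), adjusted p = 0.042. Over 26 alternatives the adjusted p of these 3 ran from 0.0014 to 0.069, 1.3e-05 to 0.089 and 0.00015 to 0.087. The call of C1s1 was lost without any 1 of 13 libraries, all but HFs replicates 1 and 3, KFs replicates 1 and 3 and TFs replicate 1, that of C2 without those 13 or TFs replicate 1, and that of C4b without any 1 of the KFc and TFc libraries or TFs replicate 2 or 3. With the counts of Gm20547 added, C2 was at -2.02 ± 0.70 (SE), adjusted p = 0.079. The differences of C1ra, Cfb, Serping1 and Masp1 were -0.47 ± 0.55, -2.15 ± 0.96, -1.53 ± 0.62 and 1.04 ± 0.76, with adjusted p of 0.13 or more. The value of Masp1 rests on the library labelled KFs replicate 3, without which it was -0.05 ± 0.62 (SE), adjusted p = 0.98. C1ra and Cfb were then at -0.10 ± 0.39 and -1.70 ± 0.86, with adjusted p of 0.90 and 0.19. Without the library labelled KFs replicate 3, 6 members were lower, Serping1 added at -1.07 ± 0.27 (SE), adjusted p = 0.011, beside 11.7% of all genes lower and 9.72% higher. Without KFs replicate 1, C1ra also passed as lower, at -1.35 ± 0.34 (SE), adjusted p = 0.015. So did Cfb at -3.48 ± 0.68 (SE), adjusted p = 0.0035, and Serping1 at -2.22 ± 0.54 (SE), adjusted p = 0.013. The difference was then -4.15 ± 0.72 (SE), adjusted p = 0.0014, for C4b, -3.41 ± 0.33 (SE), adjusted p = 1.3e-05, for C2 and -2.88 ± 0.37 (SE), adjusted p = 0.00015, for C1s1.

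Heart cells responded more than kidney cells in C1ra, C1s1, C2 and Cd55, 4 members higher and 0 lower beside 10.7% and 15.5% of all genes. By edgeR, 0 members were lower at an unadjusted p under 0.05, and DESeq2 called 0 lower. The difference was 4.66 ± 0.63 (SE), adjusted p = 0.00014, for C1s1, the largest of any member, and 3.11 ± 0.83 (SE), adjusted p = 0.012, for C2. It was 2.27 ± 0.56 (SE), adjusted p = 0.0077, for C1ra and 1.70 ± 0.27 (SE), adjusted p = 0.00048, for Cd55. These 4 calls were made under all 26 alternatives, among them without the library labelled KFs replicate 3, where C1s1 was at 4.32 ± 0.46 (SE), adjusted p = 9.0e-06. C3, C4b and Cfb had differences of 1.26 ± 0.63, 1.91 ± 0.80 and 3.05 ± 1.15, with adjusted p of 0.16, 0.095 and 0.062, and all 3 passed without HFs replicate 1, with adjusted p of 0.048, 0.030 and 0.037. Cfb also passed by DESeq2, at 3.09 ± 0.96 (SE), adjusted p = 0.0064, and with a replicate block, at 3.44 ± 1.15 (SE), adjusted p = 0.043. Without KFs replicate 1, C4b passed at 3.01 ± 0.69 (SE), adjusted p = 0.0044 and Cfb at 4.38 ± 0.80 (SE), adjusted p = 0.00091, and the difference was 5.58 ± 0.41 (SE), adjusted p = 8.1e-07, for C1s1, 4.31 ± 0.41 (SE), adjusted p = 5.8e-06, for C2 and 3.15 ± 0.35 (SE), adjusted p = 2.0e-05, for C1ra. Serping1 and Masp1 had differences of 0.72 ± 0.61 and -0.40 ± 0.77, with adjusted p of 0.43 and 0.76. Without the library labelled KFs replicate 3 they were at 0.31 ± 0.27 and 0.74 ± 0.75, with adjusted p of 0.41 and 0.49. Without KFs replicate 1 they were at 1.41 ± 0.53 and -0.77 ± 0.75, with adjusted p of 0.058 and 0.49. Masp1 changed sign among the 26 alternatives, running from -1.44 to 0.74.

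C1s1 and C1ra, the partners of the C1 complex, kept a ratio that was tight within each group and differed between organs. In CPM per kilobase, C1s1 divided by C1ra was 0.241, 0.201 and 0.256 in HFc and 0.867, 0.883 and 0.932 in HFs. In tail cells the ratio was 0.499, 0.505 and 0.483 in TFc and 1.03, 1.07 and 0.988 in TFs, and in kidney cells 3.12, 3.35 and 3.42 in KFc and 2.48, 2.39 and 2.31 in KFs. No 2 groups overlapped. Heart, tail and kidney libraries all lay nearer to 1 after transplantation, and kidney libraries were above 2 in either state. C1s1 spread 5.77-fold between the KFs libraries and C1ra 5.38-fold, while their ratio spread between 2.31 and 2.48. After group means were removed, the correlation of C1ra with C1s1 over the 18 libraries was r = 0.99 on log2(CPM + 1), that of C1ra with Serping1 was 0.92, with C2 0.91, with Cfb 0.86 and with C3 0.26, and that of C1s1 with Serping1 was 0.92. These r values are descriptions over libraries that share their group's preparation. The 42.4% of C1ra and 14.7% of C1s1 windows shared with copies limit the ratio's absolute value.

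In KFs, whose libraries include the one labelled replicate 3, most members varied widely. From the lowest to the highest library, C1ra, C1s1, C2, C3, C4b, Cfb, Serping1 and Masp1 spread 4.61-fold (C3) to 9.01-fold (Cfb) in KFs, and Cd55 1.69-fold. The KFs spread was 1.50-fold for Masp1, 1.75-fold for Serping1, 4.08-fold for Cfb and 7.35-fold for C4b without the library labelled KFs replicate 3. In HFs the spread was widest for C4b, 4.97-fold, and Masp1, 4.82-fold, and in TFs it was 1.87-fold or less for all 9 members. In the cultured groups it ranged from 1.02-fold to 2.30-fold. KFs replicate 1 had the highest value of the 3 KFs libraries in 7 members, all but C3 and Masp1, which were highest in the library labelled KFs replicate 3.

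The order of the 6 groups differed by gene. C1ra, C1s1, C2 and Cfb were highest in TFs, whose libraries did not overlap those of the next group. C3, C4b and Serping1 were highest in HFs, overlapping TFs for C3 and C4b but not for Serping1. Cd55 was highest in HFs without overlap, and Masp1 in TFc without overlap. The lowest group was HFc for C1ra, C1s1, C2 and Cfb, and C1ra in HFc overlapped KFc. It was TFc for C3, Serping1 and Cd55, overlapping KFs for Cd55, KFc for C4b, overlapping TFc, and KFs for Masp1, overlapping KFc through the library labelled KFs replicate 3.

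The other complement genes, 44 in the list, were taken to see how far these changes reached, and 33 of them were tested. In HFs against HFc 12 were higher and 1 lower, beside 18.3% and 9.33% of all genes tested. In KFs against KFc 8 were higher and 12 lower, beside 14.7% and 7.99%, and in TFs against TFc 5 were higher and 10 lower, beside 11% and 5.53%. Their median log2 fold changes were 1.05, -0.70 and 0.47, and those of all genes tested 0.05, 0.09 and 0.00. The lists were chosen with results of these data known and are no independent evidence of direction.

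Without the library labelled KFs replicate 3, KFs held 4 of them above KFc and 11 below, of 34 that then passed the filter, beside 12.9% higher and 10.3% lower of all genes. Among the soluble regulators, Clu, clusterin, rose with log2 fold changes of 4.01 ± 0.81, 3.02 ± 0.76 and 2.87 ± 0.75, in heart, kidney and tail cells, and in KFs it was at 20.2, 22.2 and 309 CPM, high in the library labelled KFs replicate 3 alone, without which its value was 0.51 ± 0.27 (SE), adjusted p = 0.12. Cfi, factor I, a protease that inactivates C3b, rose in HFs, from 4.13 ± 0.617 to 23.3 ± 1.83 CPM (SD, n = 3), and in KFs it was called higher at 0.162, 0 and 1.56 CPM against 0, 0.0698 and 0.166 in KFc, a call that was lost without the library labelled KFs replicate 3, at -0.20 ± 1.02 (SE), adjusted p = 0.89.

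Of the terminal components, C7, a part of the membrane attack complex, rose in all 3 organs from cultures at or near 0, to 4.15, 13.0 and 13.8 CPM in HFs, 11.0, 4.13 and 0.240 in KFs and 0.267, 1.04 and 1.06 in TFs. KFc and TFc held at most 1 count of C7 per library. C8g rose in HFs, from 0.127 ± 0.0475 to 0.578 ± 0.227 CPM. Of the central components, C4a rose in HFs, from 0.502 ± 0.185 to 2.09 ± 0.576 CPM, and Hc, which encodes C5, rose in KFs, from 0.0589 ± 0.0723 to 0.417 ± 0.162 CPM. Cfp, properdin, which stabilises the alternative pathway's enzyme, fell in KFs, from 8.34 ± 1.03 to 3.50 ± 0.524 CPM.

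The subunits of C1q, C1qa, C1qb and C1qc, fell in kidney and tail cells, unlike the proteases C1ra and C1s1. C1qa was at 32.4, 30.1 and 25.6 CPM in KFc and 4.08, 3.08 and 0.719 in KFs, at 8.99, 6.71 and 7.63 in TFc and 0.588, 1.59 and 1.78 in TFs, and at 9.18, 4.91 and 9.53 in HFc and 5.35, 6.08 and 4.29 in HFs. For all 3 subunits, kidney and tail groups did not overlap. Heart groups overlapped for C1qa and C1qb but not for C1qc, which was at 8.52, 7.38 and 8.79 CPM in HFc and 4.81, 3.74 and 4.25 in HFs, with a log2 fold change of -0.95 ± 0.44 (SE), adjusted p = 0.081, which did not pass the test. The receptors C3ar1, C5ar1 and Itgb2 and the ficolin gene Fcna fell in the same pair of comparisons, as did Vsig4, a complement receptor of macrophages, which was at 0 counts in TFs. The leukocyte markers Cd68 and Adgre1 were lower there too, with 21.0, 23.2 and 21.5 CPM of Adgre1 in KFc and 4.08, 1.76 and 0 in KFs, and their part in these changes was not tested. Cd93 and C1rl fell in KFs, C1rl to within the limit without the library labelled KFs replicate 3, Itgax rose in TFs to at most 16 counts per library, and C5ar2 rose in HFs.

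Collectins and membrane regulators were mixed. Colec12 rose in HFs, from 89.7 ± 7.79 to 260.1 ± 13.2 CPM, and Colec11 fell there, from 8.20 ± 1.07 to 1.57 ± 0.451 CPM, while Colec11 was called higher in TFs on at most 4 counts per library. Cd59b, which blocks the membrane attack complex, rose in HFs and KFs, with log2 fold changes of 1.58 ± 0.27 and 1.23 ± 0.27, and was at 0.73 ± 0.20 (SE), adjusted p = 0.0062, in KFs without the library labelled KFs replicate 3, under the limit. Its copy Cd59a fell in KFs and TFs, with -1.42 ± 0.21 and -1.27 ± 0.22. Csmd1 rose in HFs and KFs and was at 2.30, 0.641 and 77.5 CPM in KFs, high in the library labelled KFs replicate 3, without which its log2 fold change was 1.50 ± 0.86 (SE), adjusted p = 0.16. Cd46 rose in HFs, and Susd4 rose in HFs and fell in TFs. The copies Cd55b in HFs and C1s2 in KFs and TFs were called higher at levels of 2.33 ± 0.457, 2.33 ± 2.29 and 1.59 ± 0.405 CPM, and C1rb in KFs at 30 counts or fewer per library. Without the library labelled KFs replicate 3, C1s2 in KFs was at 2.18 ± 1.07 (SE), adjusted p = 0.10, and Colec12 was called higher, at 1.29 ± 0.10 (SE), adjusted p = 5.5e-08.

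**Figure D4:**
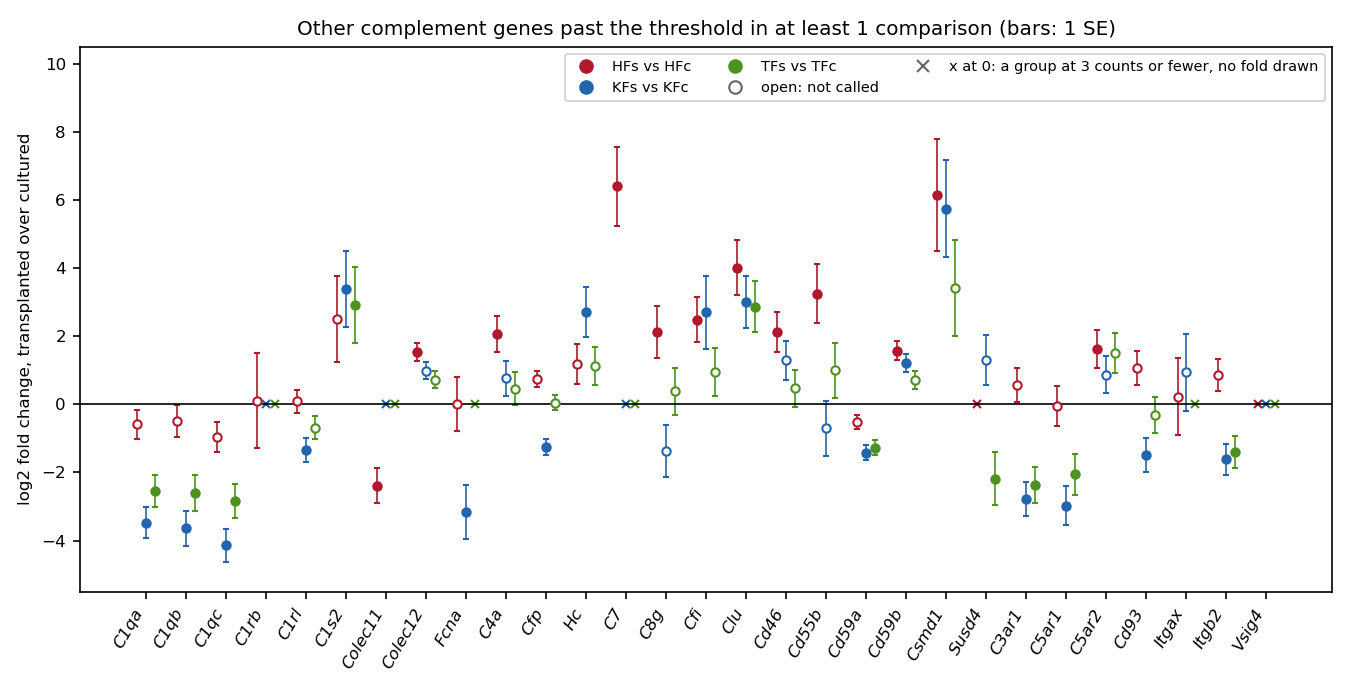
log2 fold change of transplanted over cultured cells for the 29 other complement genes past the threshold in at least 1 organ, with bars of 1 SE, filled where called; a cross at 0 marks the 12 comparisons in which a group had 3 counts or fewer in every library and no fold is drawn. Clu lies above 0 in all 3 organs, and in kidney cells it was not called without the library labelled KFs replicate 3, at 0.51 ± 0.27 (SE). C1qa, C1qb and C1qc lie below 0 in kidney and tail cells by more than 2.

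The genes whose levels were most like each member over the 18 libraries were named by Pearson's r of log2(CPM + 1), as a description of libraries that share 6 groups. They were Lum (r = 0.980), Fbln1 and Lrp4 for C1ra, Col6a3 (0.969), Gsdmd and Plxnd1 for C1s1, and Igfbp3 (0.948), Kng2 and Col6a3 for C2. For C3 they were Ifi205 (0.970), Gbp9 and Gpm6b, for C4b Ace (0.967), Olfml1 and Art3, and for Cfb Enpp2 (0.994), Steap4 and Apobec3. For Serping1 they were Airn (0.969), Gpm6b and Lpl, for Masp1 Kitl (0.965), Ankrd28 and Nudt9, and for Cd55 Ephx2 (0.904), Pla2r1 and Apoe. Gpm6b was among the 3 genes most like both C3 and Serping1, and Col6a3 among those most like both C1s1 and C2.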

How the data were processed

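RNA of 18 libraries was sequenced as 75-base single-end reads from total RNA with a stranded low-input kit. The deposited table holds expected counts per gene that the authors made with RSEM. The study's methods name GRCm38 and Bowtie2, the submitters' processing notes mm9, Bowtie and RSEM, and the annotation release is not given in the sources used here. Of the values, 0 differed from a whole number (tolerance 0), so rounding changed none. Strand was used in counting. Symbols came from GENCODE release 21 (37607 of 38924 genes matched). Members and lists were chosen with earlier results of these data known. From the lists 1 gene was left out and is not reported here, and listed genes not called between transplanted and cultured cells are given within counts only.

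From these counts, edgeR 4.0.16 (R 4.3.3, limma 3.58.1) gave TMM-scaled CPM, and filtered genes by filterByExpr (16577 kept). A quasi-likelihood test was fitted over all 6 groups, with Benjamini-Hochberg adjustment over all genes. Calls needed an adjusted p below 0.05, and between transplanted and cultured cells also a log2 fold change above 1 or below -1. Replicates were distinct libraries, each group has 3, and TMM-scaled CPM at 3 counts was 0.0890 to 0.180, which covers counting error only. Named genes were all 9 members, listed complement genes called between transplanted and cultured cells, copies of members, and the 3 genes most like each member. Alternatives were DESeq2 1.42.0, other size factors and filters, a replicate block, only the groups compared, each library left out, and, chosen after seeing the data, copies added and KFs levels and listed genes without KFs replicate 3. Scripts were tested on simulated data.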

Additional observations from a re-analysis of the deposited data

Results flagged for a closer look

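The change from culture to transplant differed between organs for several members, by an interaction test in edgeR's quasi-likelihood fit with Benjamini-Hochberg adjustment over all genes. Values are differences of log2 fold changes with their SE. Heart cells against tail cells differed for C1ra (1.80 ± 0.55), C1s1 (2.70 ± 0.62) and C3 (-2.50 ± 0.64), with adjusted p of 0.029, 0.0058 and 0.012. Kidney cells against tail cells differed for C1s1 (-1.96 ± 0.58), C2 (-2.21 ± 0.66), C3 (-3.76 ± 0.66), C4b (-3.05 ± 0.83) and Cd55 (-1.55 ± 0.28), with adjusted p of 0.042, 0.043, 0.0020, 0.028 and 0.0024. Heart cells against kidney cells differed for C1ra (2.27 ± 0.56), C1s1 (4.66 ± 0.63), C2 (3.11 ± 0.83) and Cd55 (1.70 ± 0.27), with adjusted p of 0.0077, 0.00014, 0.012 and 0.00048. Of these calls, that of C1ra between heart and tail was lost in 9 of 26 alternatives, and between kidney and tail those of C1s1, C2 and C4b in 15, 16 and 8, while the other 8 were kept in all 26.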

How the results depend on the processing

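Of 2835 member values recomputed under up to 27 alternatives (18 of which each left out 1 library), 2663 kept their side of the threshold (18 of them, in which neither value was called, with the other sign), 131 no longer passed, 41 newly passed, and 0 reversed while called. With each library left out in turn, the number of members called was 7 to 9 in HFs against HFc (9 with all), 4 to 7 in KFs against KFc (6), 8 to 9 in TFs against TFc (8), 9 throughout in HFc against TFc, 3 to 6 in KFc against TFc (5) and 4 to 5 in HFc against KFc (5). It was 3 to 7 in HFs against TFs (4), 7 to 9 in KFs against TFs (7) and 4 to 8 in HFs against KFs (7). For the responses it was 2 to 4 between heart and tail (3), 2 to 8 between kidney and tail (5) and 4 to 7 between heart and kidney (4). The extremes came in KFc against TFc without TFc replicate 1 (3), in HFs against TFs without the library labelled KFs replicate 3 (7), in HFs against KFs without HFs replicate 3 (4), between kidney and tail responses without KFs replicate 1 (8) and without KFc replicates 1 to 3, TFs replicates 2 and 3 or TFc replicates 1 to 3 (2 each), and between heart and kidney responses without HFs replicate 1 (7). That kidney and tail count was 3 without HFs replicate 2, HFc replicates 1 to 3 or KFs replicate 2. When only the groups compared were fitted, 8 members were called in HFc against KFc, 4 in KFs against TFs, 2 in HFs against KFs and 3 between kidney and tail responses, a fit on fewer libraries. DESeq2 called 8 members in TFs against TFc and 9 in HFs against HFc. It called 3 higher and 3 lower in KFc against TFc and 1 higher and 4 lower in HFs against TFs. Between heart and kidney responses it called 5 higher and 0 lower, and in the other comparisons its counts were those of the first fit. The counts of this section are given without the shares of all genes called in the same fits. Scaling by library size alone moved the median of all genes by at most 0.22 (log2), and RLE factors by at most 0.06. Replicate numbers were not used as pairs in the first fit. Deviations of same-numbered libraries correlated at -0.189 to 0.123, with 1 pair above 0.1. With 3 libraries per group, this cannot show whether same-numbered libraries came from the same cells. With a replicate block, 9, 6, 8, 9, 4, 5, 3, 7, 6, 3, 4 and 5 members were called in the 12 comparisons in the order above, and over all genes 4504 in place of 4585 in HFs against HFc. With the length of the longest transcript in place of merged exons, levels per kilobase moved by more than their SD for Cd55 in all 6 groups, for C2 and Serping1 in all but KFs, for Masp1 in all but HFs and KFs, and for C1s1 in KFc and TFc.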
